A study of Mus musculus with 4 samples.

Results

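The comparison set the tumour cells of vehicle-treated mice beside the leukocytes sorted from the same brains, to ask which compartment carried the transcripts of lipid synthesis, uptake, storage and stress and of ligands and receptors in the vehicle arm. Its members were the barcodes of these 2 libraries with at least 300 genes and at most 15% mitochondrial UMIs (unique molecular identifiers, 1 per captured transcript). That rule took 14412 of the 29760 barcodes that pass it in the 4 libraries of the series, 7453 from the tumour library and 6959 from the leukocyte library. The host animals were immunocompetent female C57BL/6 mice with EO771 cells, a mouse mammary carcinoma line made to express GFP, implanted in the brain. They received vehicle for 14 days, and tissue from 3 mice was pooled before sorting. Live CD45-negative GFP-positive cells gave the tumour library and live CD45-positive GFP-negative cells gave the leukocyte library, so neither gate was set for resident brain cells or stroma that lack both labels, nor for tumour cells that lost GFP. No source used here gives the ages of the mice. Each group is 1 pooled library, so there is no replicate and no test across animals, and cell type, sort and library cannot be told apart. Intervals in parentheses are 95% and cover counting error only.

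Fatty acids and sterols can be made inside a cell or taken up from outside. Synthesis runs from citrate through acetyl-CoA to palmitate, which elongases and desaturases then lengthen and kink, and the sterol branch runs through mevalonate under the control of SREBP transcription factors. Cells that import lipid use fatty acid binding proteins, CD36, lipoprotein lipase and lipoprotein or scavenger receptors, digest the cargo in lysosomes, store the surplus as esters in droplets coated with perilipins, and send sterol out through ABC transporters to apolipoprotein E. Brain macrophages and microglia are known for this last set of functions, since they clear myelin and dead cells.

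Defining markers differed between the libraries. The epithelial keratin gene Krt8 stood at 1479.9 CPM (UMIs of the gene per 1000000 UMIs) in the tumour library and 4.45 CPM in the leukocyte library, and Krt18, its usual partner, at 17.98 and 0.133 CPM. Ptprc, which encodes CD45, stood at 0.0424 and 1003 CPM. With every barcode thinned to 2000 UMIs, Krt8 had a UMI in 91.8% of 7002 tumour barcodes and in 0.476% of 6723 leukocyte barcodes, and Ptprc in 0.0286% and 77.7%. On all UMIs those shares were 98.1% and 2.23% for Krt8 and 0.0939% and 96.8% for Ptprc. Of the 6 epithelial markers, 3 reached 5 CPM in either library. Krt8 and Krt18 were at least 2-fold higher in the tumour library, and the remaining 1 was at least 2-fold higher in leukocytes. Summed over the 6 markers, the levels were 1502 CPM in the tumour library and 15.9 CPM in leukocytes. All 5 pan-leukocyte markers and all 6 mononuclear phagocyte markers were at least 2-fold higher in leukocytes. Of the endothelial markers, Egfl7 (54.3 CPM in the tumour library and 1.30 CPM in leukocytes) and Cdh5 (16.7 and 3.22 CPM) were higher in the tumour library, whereas Pecam1 (3.04 and 68.8 CPM) was not. In all, 3322 tumour barcodes (44.6%) held at least 3 UMIs of those markers, while 139 (1.87%) held no epithelial UMI. Of the leukocyte barcodes 211 (3.03%) held at least 3 UMIs of the 6 epithelial markers, not of the keratins alone, and 226 (3.25%) held no Ptprc UMI. The leukocyte levels of Krt8 and Krt18 were 0.301% and 0.741% of their tumour levels, a range used below as a background for tumour genes with low leukocyte values. The tumour library was deeper, with 306797523 kept UMIs and a median of 41933 per barcode against 135066728 and 15737, and 9 barcode sequences occurred in both libraries.

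A minimum of 5 CPM in the tumour or the leukocyte library left 11185 genes to compare, and a gene was called for a library when its CPM was at least 2-fold higher there. By that rule 30.6% of all compared genes were called for the tumour library and 28.2% for the leukocyte library, and the median log2 ratio of tumour over leukocytes was 0.14. Of the 478 listed genes, 409 reached 5 CPM and 69 stayed below it in both libraries. Of the 409, 103 were called for the tumour library, 167 for leukocytes and 139 for neither. CPM states a gene's share of the summed UMIs of a library, in which deeper barcodes weigh more. A tumour barcode held 2.12-fold more UMIs on average. Counted as UMIs per barcode, every log2 ratio is 1.08 higher, so that 6173 genes were called for the tumour library and 2030 for leukocytes, against 3428 and 3152 on the CPM scale. Scaling by the median of ratios lowers every log2 ratio by 0.16. Values are CPM unless another scale is named.

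**Figure D1:**
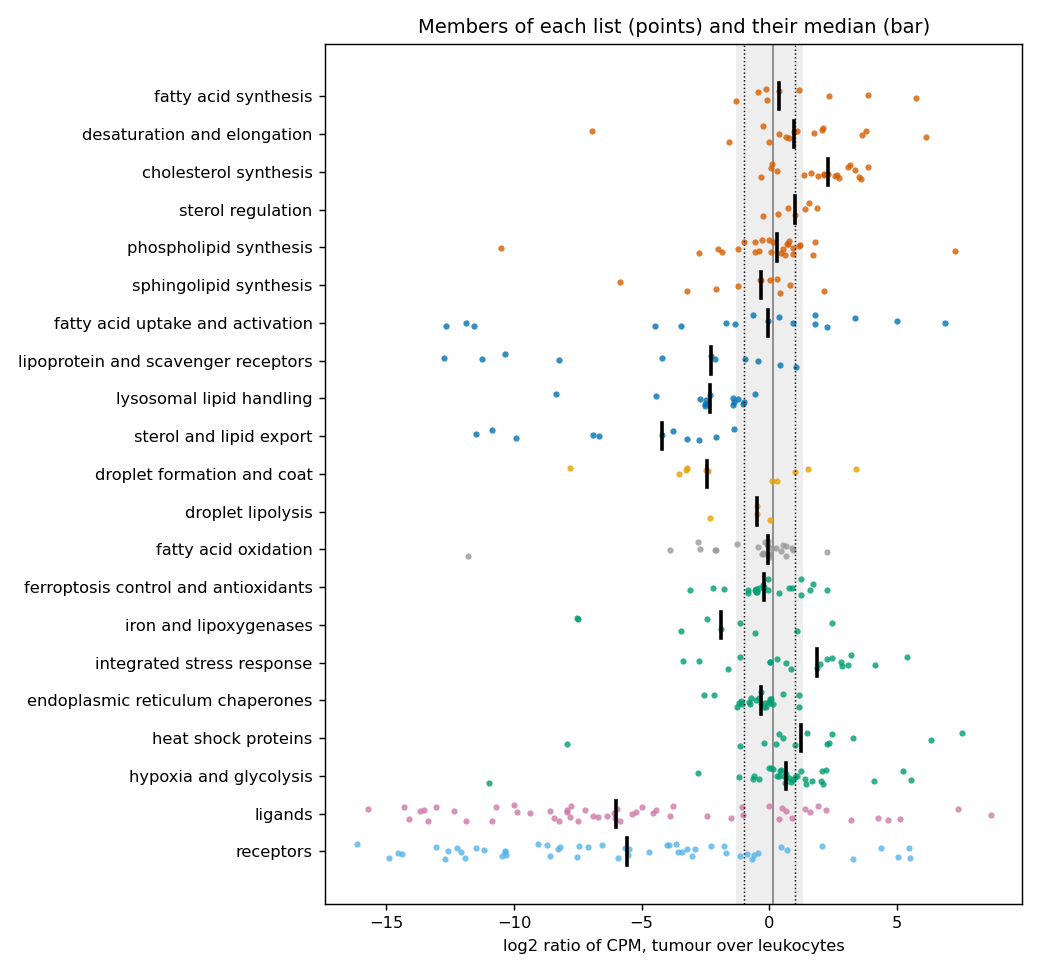
Each point is a listed gene with at least 5 CPM in either library, placed by its log2 ratio of CPM (tumour over leukocytes, horizontal axis) in the row of its list. Black bars are list medians, the grey band spans the quartiles of all 11185 genes (-1.24 to 1.28) around their median of 0.14, and dotted lines mark 2-fold. The cholesterol synthesis bar sits at 2.29, and the bars of sterol and lipid export, ligands and receptors sit at -4.21, -6.01 and -5.58.

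Of 88 compared synthesis genes, 37 were called for the tumour library, 12 for leukocytes and 39 for neither, and their median log2 ratio was 0.73. The sterol lists had the highest shares called for tumour cells, and the phospholipid list was even. In the sphingolipid list 4 of 11 genes (36.4%) were called for leukocytes, against 28.2% of all compared genes, and 1 for tumour cells. Per barcode, 63 of the 88 synthesis genes were called for the tumour library and 6 for leukocytes, on a scale where 6173 and 2030 of all 11185 genes were called. On that scale the sphingolipid balance turned, with 5 genes called for the tumour library and 3 for leukocytes (median log2 ratio 0.77).

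In the fatty acid synthesis list 4 of 9 compared genes were called for tumour cells and 1 for leukocytes (median log2 ratio 0.39). The list holds the enzymes that lead to palmitate and also a mitochondrial enzyme, a source of NADPH and a regulator. Fasn, which builds palmitate from malonyl-CoA, is annotated at chr11:120805846-120824547 on the minus strand of GRCm38. It stood at 81.1 CPM in tumour cells and 5.58 CPM in leukocytes, a log2 ratio of 3.86 (3.76 to 3.97). Acaca, whose product makes the malonyl-CoA, stood at 60.9 and 26.8 CPM (log2 ratio 1.19 (1.14 to 1.24)). Mcat, the mitochondrial malonyl transferase, stood at 41.7 and 8.17 CPM, and Me1, a cytosolic source of NADPH, at 14.1 and 0.259 CPM. The steps before the one run by the Acaca product were not tumour-sided. Acly, which splits citrate into acetyl-CoA, had 42.6 and 46.6 CPM (log2 ratio -0.13 (-0.17 to -0.09)), and Slc25a1, the citrate carrier, was called for leukocytes with 7.73 and 18.96 CPM. Srebf1, the SREBP gene tied to fatty acid synthesis, stood at 15.9 and 16.9 CPM, close to equal on this scale.

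Among desaturases and elongases, 7 of 15 compared genes were called for tumour cells and 2 for leukocytes (median log2 ratio 0.99). Scd1 (chr19:44394455-44407879, minus strand) and Scd2 (chr19:44293674-44306864, plus strand) encode stearoyl-CoA desaturases, which turn saturated into monounsaturated acyl chains. Scd2 stood at 50.1 CPM in tumour cells and 25.2 CPM in leukocytes, a log2 ratio of 0.99 (0.94 to 1.04) that lies just short of 2-fold. Scd1 stood at 22.5 and 5.18 CPM, a log2 ratio of 2.12 (2.01 to 2.23). At 2000 UMIs per barcode Scd1 had a UMI in 3.94% of tumour and 1.12% of leukocyte barcodes, and on all UMIs in 51.7% and 4.05%. Scd3 and Scd4 were rare, with 28 and 115 UMIs in the tumour library and 5 and 19 in leukocytes. Fads1 and Fads2, which desaturate polyunsaturated chains, stood at 10.6 and 8.83 CPM in tumour cells and at 8.03 and 2.58 CPM in leukocytes, so that Fads2 passed 2-fold and Fads1 did not.

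The elongases divided between the compartments. Elovl7 (chr13:108214404-108285683, plus strand), which lengthens saturated long chains, stood at 74.02 CPM in tumour cells and 1.04 CPM in leukocytes (log2 ratio 6.15 (5.92 to 6.41)). Elovl6, which carries palmitate to stearate, stood at 41.5 and 10.00 CPM, and Elovl5, which lengthens polyunsaturated chains, at 15.6 and 46.7 CPM. Of all Elovl UMIs in a library, Elovl7 therefore took 33.8% in tumour cells and 0.95% in leukocytes, and Elovl5 took 7.1% and 42.8%. Among the dehydratases of the elongation cycle the same exchange occurred, since Hacd1 stood at 68.1 and 4.95 CPM and Hacd4 at 0.339 and 42.2 CPM. Hacd2 and Hacd3 lay within 2-fold.

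**Figure D2:**
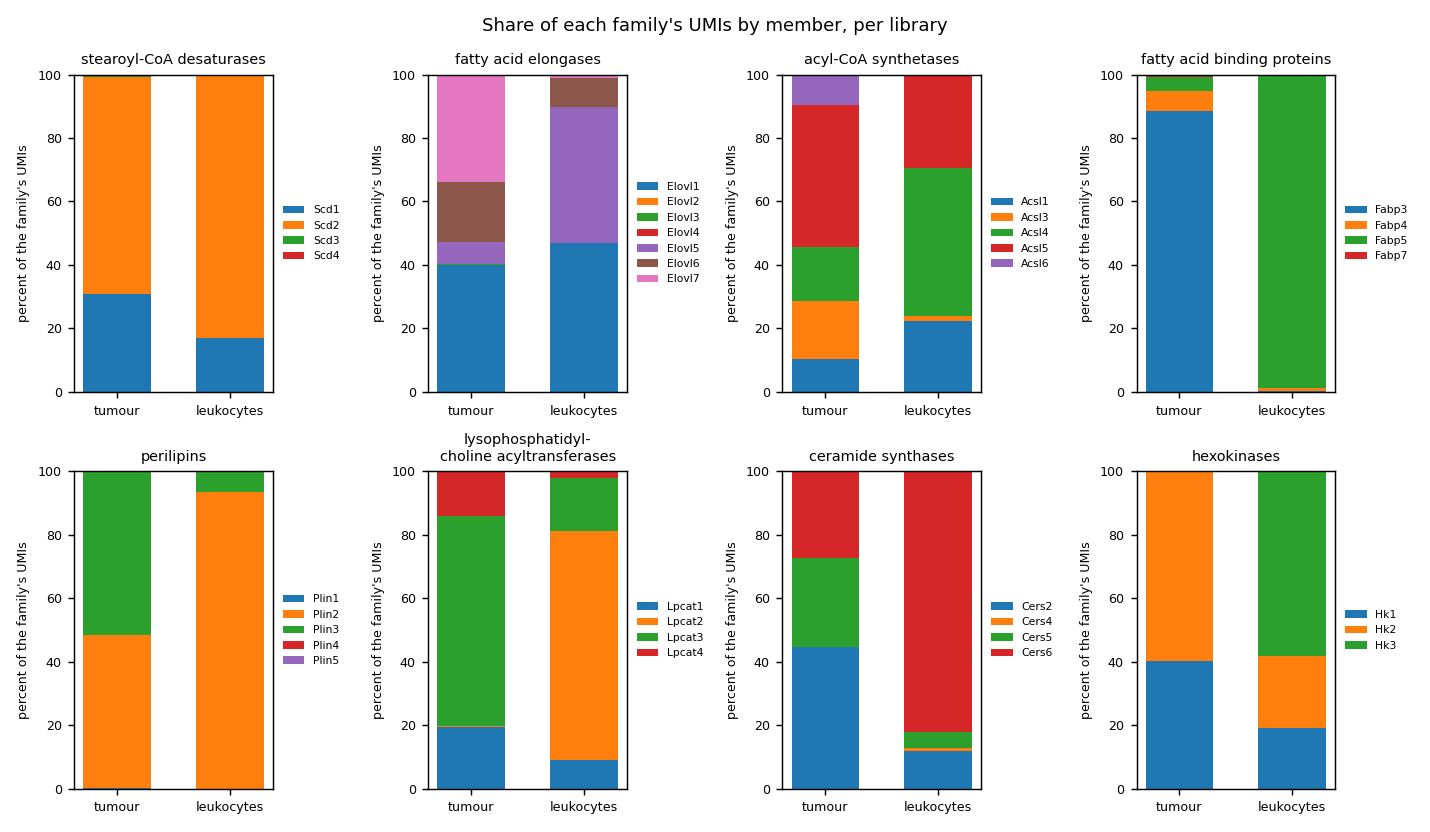
Bars give each member's share, in percent, of all UMIs of its gene family in the tumour library and in the leukocyte library, for 8 families, with colours naming the members. Elovl7 takes 33.8% of the elongase UMIs in tumour cells, and Fabp5, Lpcat2, Cers6 and Hk3 take 98.6%, 71.97%, 82.1% and 58.1% of their families in leukocytes.

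Cholesterol synthesis was the list with the highest median of the 21. Of its 20 compared genes 16 were called for tumour cells and 0 for leukocytes, with a median log2 ratio of 2.29. Fdps (chr3:89093588-89101959, minus strand), which makes farnesyl diphosphate, stood at 283 CPM in tumour cells and 31.1 CPM in leukocytes (log2 ratio 3.18 (3.14 to 3.23)). Idi1, the isomerase just before it, stood at 138 and 13.4 CPM. Sqle (chr15:59315077-59331192, plus strand), which encodes squalene epoxidase, stood at 57.2 and 4.75 CPM (log2 ratio 3.59 (3.48 to 3.70)). Hsd17b7, which acts after lanosterol, stood at 31.1 and 2.13 CPM. The genes within 2-fold included Pmvk, Lbr and Ebp. Lbr, which is also a nuclear envelope protein, stood at 39.7 and 38.1 CPM, and Ebp, a sterol isomerase, at 57.4 and 71.7 CPM.

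Sterol genes are known to be regulated through short promoter elements, so the RefSeq promoters of the list were read (GRCm38.p6, 250 bases before each start, 15 of the 20 compared genes matched). A CCAAT box, the element bound by NF-Y (CCAAT, either strand), was present for 14 of these 15 genes, against 40.3% of the 8856 compared genes with a promoter entry. Counted over promoters, that was 14 of 18 against 34.9%. The sterol regulatory element in the form TCACNCCAC occurred in 1 of the 15, Hmgcs1, against 1.17% of compared genes, and it did not overlap a CCAAT box there. Of the compared genes called for the tumour library, 41.5% held a CCAAT box, and of those called for leukocytes 38.8%. The 14 genes with a box included Pmvk, Lbr and Ebp, which lay within 2-fold (log2 ratios 0.13, 0.06 and -0.32). A box was also present for 5 of 8 fatty acid synthesis genes. The same held for 6 of 11 genes of lysosomal lipid handling, a list with 0 genes called for tumour cells. A match describes letters and was not tied to binding. The following 4 windows show the boxes, in capitals on the gene's strand (ATTGG is the box read on the other strand), in the gene with the sterol element and in 3 genes from the top of the list. Each is 97 bases, read 5′ to 3′, from the 250 bases before the annotated start. In Hmgcs1, which makes HMG-CoA and stood at 63.5 and 20.4 CPM, the second run of capitals is the sterol element.
Hmgcs1, chr13:119690172-119690268, plus strand: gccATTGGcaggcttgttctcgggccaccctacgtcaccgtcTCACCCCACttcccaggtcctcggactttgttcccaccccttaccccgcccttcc
Idi1, chr13:8885509-8885605, plus strand: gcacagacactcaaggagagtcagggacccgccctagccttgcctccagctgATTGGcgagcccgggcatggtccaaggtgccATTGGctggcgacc
Hsd17b7, chr1:169969206-169969302, minus strand: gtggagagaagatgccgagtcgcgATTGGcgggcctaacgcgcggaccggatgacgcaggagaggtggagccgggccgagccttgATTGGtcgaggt
Lss, chr10:76531497-76531593, plus strand: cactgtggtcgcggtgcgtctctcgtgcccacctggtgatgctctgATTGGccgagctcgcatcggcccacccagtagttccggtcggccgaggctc
Hsd17b7 and Idi1 each show a pair of boxes in the window, and Lss, the lanosterol synthase at 13.7 and 1.62 CPM, shows 1. Fdps, Sqle, Scd1 and Scd2 were not in the promoter table.

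The sterol sensors were less far apart than the enzymes. Of 7 compared regulators 4 were called for tumour cells and 0 for leukocytes (median log2 ratio 1.00). Srebf2, the SREBP gene tied to cholesterol synthesis, stood at 74.4 and 45.04 CPM (log2 ratio 0.72 (0.68 to 0.77)). Mbtps2, the protease that releases SREBPs in the Golgi, stood at 69.02 and 18.9 CPM and Insig2, which holds them in the endoplasmic reticulum, at 58.5 and 19.6 CPM. Insig1, the feedback partner of Insig2, stood at 15.9 and 18.7 CPM.

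Phospholipid and sphingolipid genes mostly lay within 2-fold, but single members were far to either side. Of 26 compared phospholipid genes 5 were called for each library and 16 for neither. Lpcat2, which remodels lysophosphatidylcholine and makes platelet-activating factor, stood at 0.114 CPM in tumour cells and 170.03 CPM in leukocytes (log2 ratio -10.52 (-11.06 to -10.07)). Its relative Lpcat3 stood at 77.1 and 39.98 CPM, and the lipin Lpin3 at 12.2 and 0.0740 CPM, a leukocyte level that is 0.607% of the tumour level and so inside the keratin range. Among 11 sphingolipid genes 1 was called for tumour cells and 4 for leukocytes. Cers6, a ceramide synthase for C16 chains, stood at 70.8 and 664 CPM (log2 ratio -3.23 (-3.25 to -3.21)) and took 27.2% and 82.1% of ceramide synthase UMIs. Kdsr, the reductase at the start of the pathway, was the member called for tumour cells, with 43.3 and 9.70 CPM.

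Of 54 compared genes of lipid uptake, digestion and export 38 were called for leukocytes and 7 for tumour cells, and the median log2 ratio was -2.29. Per barcode, 30 were called for leukocytes and 11 for tumour cells.

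The fatty acid carriers lay far apart. Fabp5 (chr3:10012548-10016607, plus strand), a cytosolic fatty acid chaperone, stood at 0.564 CPM in tumour cells and 1741 CPM in leukocytes (log2 ratio -11.59 (-11.82 to -11.38)). At 2000 UMIs per barcode it had a UMI in 0.129% of tumour and 49.7% of leukocyte barcodes (on all UMIs 1.25% and 74.4%). Cd36 (chr5:17781690-17888801, minus strand), the membrane fatty acid translocase, had 3 UMIs in the whole tumour library and 10002 in leukocytes, or 0.00978 and 74.1 CPM (log2 ratio -12.66 (-15.16 to -11.34)). Lpl (chr8:68880491-68907448, plus strand), the lipase that frees fatty acids from lipoproteins, stood at 0.0163 and 68.1 CPM. Fabp4, the relative typical of fat and macrophages, stood at 0.857 and 19.2 CPM. Fabp3, the heart-type carrier, was the member that tumour cells carried, with 11.99 and 3.45 CPM.

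Fatty acid activation was shared out by isoform. The list of 17 compared uptake and activation genes had 6 called for tumour cells, 7 for leukocytes and a median of -0.04. Acsl3, an acyl-CoA synthetase of the endoplasmic reticulum and droplets, stood at 26.3 CPM in tumour cells and 2.54 CPM in leukocytes. Acsl4, which prefers arachidonate, stood at 24.7 and 80.05 CPM, and Acsl5 at 64.9 and 50.3 CPM. Acsl6 was found almost wholly in the tumour library, with 4200 and 15 UMIs. Summed over the 5 Acsl genes, the log2 ratio was -0.24, so the family total was within 2-fold, as was Acsl5, while the other 4 members were past 2-fold in 1 direction or the other. Tumour cells also carried Cav1, the coat protein of caveolae (37.5 and 1.17 CPM), and Angptl4, a secreted inhibitor of lipoprotein lipase (20.1 and 4.21 CPM).

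Lipoprotein and scavenger receptors were called for leukocytes in 7 of 11 cases. Msr1, a class A scavenger receptor, stood at 0.0456 CPM in tumour cells and 327 CPM in leukocytes, and Trem2, a lipid-sensing receptor of microglia and macrophages, at 0.199 and 261 CPM. Lrp1, a large endocytic receptor for apolipoprotein E, stood at 72.6 and 355 CPM (log2 ratio -2.29 (-2.31 to -2.27)). Scarb1, the HDL receptor, stood at 62.1 and 30.2 CPM, just past 2-fold on the tumour side.

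Of 15 compared genes of lysosomal lipid handling 13 were called for leukocytes and 0 for tumour cells (median -2.30). Psap, the precursor of the saposins, stood at 388 and 2194 CPM. Lipa, the acid lipase, stood at 10.6 and 68.9 CPM and Gm2a, the GM2 activator, at 0.909 and 302 CPM. Asah1, acid ceramidase, was the nearest to the threshold with 93.5 and 191 CPM (log2 ratio -1.03), and its direction turned when UMIs per barcode were used (0.06). Ctsd, cathepsin D, stood at 317 and 1559 CPM and was the 1 of 11 listed lysosomal genes with a promoter entry that held the palindrome TCACGTGA, the element read by TFEB, against 1.90% of compared genes. It is shown for that element, in capitals, in 97 of the 250 bases before the start, and it overlaps no CCAAT box.
Ctsd, chr7:142387873-142387969, minus strand: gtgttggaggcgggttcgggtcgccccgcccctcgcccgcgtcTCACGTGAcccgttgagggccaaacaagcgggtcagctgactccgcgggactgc

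Export was the most leukocyte-sided of the lipid lists, with all 11 compared genes called for leukocytes (median -4.21). Apoe (chr7:19696109-19699188, minus strand), the main lipid carrier of the brain, stood at 3.09 CPM in tumour cells and 5754 CPM in leukocytes (log2 ratio -10.86 (-10.96 to -10.77)). Abca1, which loads sterol on to it, stood at 0.228 and 226 CPM, and Abcg1, a further sterol transporter, at 40.7 and 173 CPM. Apoc2, the cofactor of lipoprotein lipase, stood at 0.0587 and 173 CPM. The liver X receptors that induce these genes differed less, with Nr1h3 at 4.96 and 68.1 CPM and Nr1h2 at 18.5 and 48.6 CPM.

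**Figure D3:**
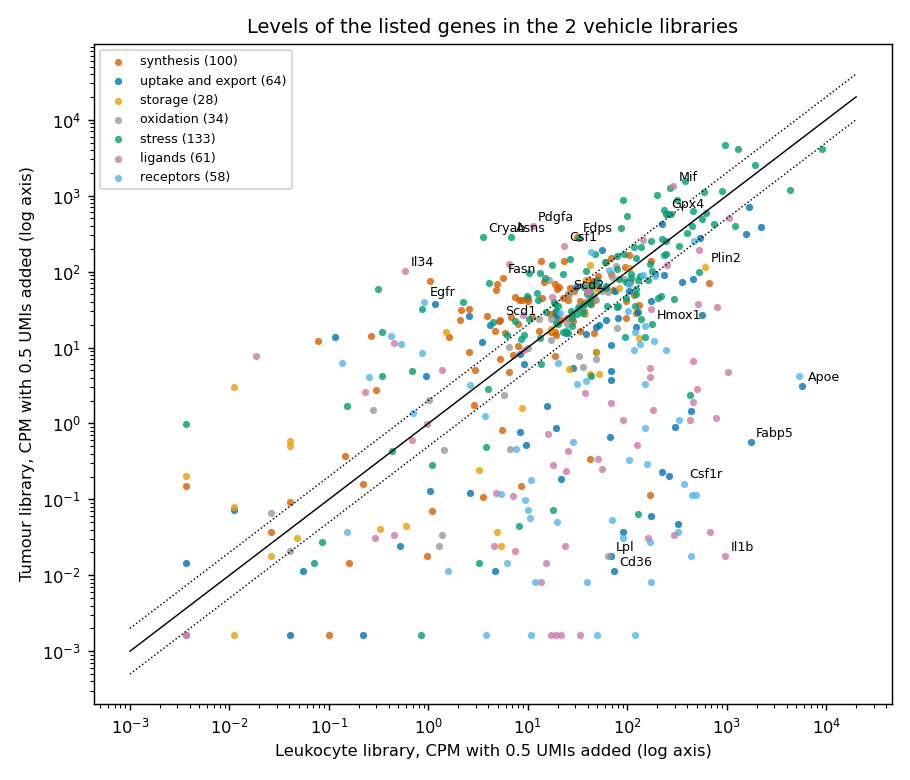
Each point is 1 listed gene, with its CPM in the leukocyte library on the horizontal log axis and in the tumour library on the vertical log axis, coloured by theme, with 0.5 UMIs added so that genes at 0 can be drawn. The solid line marks equality and the dotted lines 2-fold. Fasn (81.1 and 5.58 CPM) lies far above the lines, while Apoe, Fabp5, Cd36 and Lpl lie far below them.

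Storage leaned to leukocytes, with 8 of 16 compared genes called for them, 2 for tumour cells and a median log2 ratio of -1.40. Plin2 (chr4:86648386-86670060, minus strand), the droplet coat protein of most cells, stood at 114 CPM in tumour cells and 607 CPM in leukocytes (log2 ratio -2.41 (-2.43 to -2.40)). Plin3, a coat protein that also circulates in the cytosol, stood at 122 and 42.4 CPM on the tumour side. Plin2 therefore took 48.2% of perilipin UMIs in tumour cells and 93.5% in leukocytes. Of the enzymes that esterify, Soat1, which stores cholesterol, stood at 13.5 and 131 CPM and Dgat1 (chr15:76502015-76511953, minus strand), which completes triglyceride, at 8.68 and 48.00 CPM. Dgat2, its partner, stood at 0.0228 and 5.40 CPM. Hilpda, a hypoxia-induced inhibitor of lipolysis, stood at 59.5 and 48.4 CPM (log2 ratio 0.30 (0.26 to 0.34)), and Pnpla2, the lipase it inhibits, at 27.5 and 37.8 CPM, both within 2-fold. Of the 4 compared lipolysis genes the hormone-sensitive lipase gene Lipe was called, for leukocytes (5.21 and 26.2 CPM).

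Fatty acid oxidation had the highest share of genes within 2-fold among the 7 themes, with 19 of 27 compared genes within 2-fold, 1 called for tumour cells, 7 for leukocytes and a median of -0.04. The share called for leukocytes was 25.9%, against 28.2% of all compared genes. For entry into the mitochondrion, Cpt1a and Slc25a20 were leukocyte-sided. Cpt1a, the gate of the pathway, stood at 7.80 CPM in tumour cells and 33.1 CPM in leukocytes (log2 ratio -2.09 (-2.16 to -2.01)), and Slc25a20, the acylcarnitine carrier, at 6.96 and 48.7 CPM. The rarer Cpt1b and Cpt1c went the other way, with 618 and 459 UMIs in the tumour library and 136 and 37 in leukocytes. Summed over the Cpt1 genes the log2 ratio was -1.60. The enzymes of the spiral itself were close, as Hadha (54.8 and 55.96 CPM) and Acadm (36.6 and 36.2 CPM) show. Eci1, an isomerase for unsaturated chains, was the gene called for tumour cells, with 77.7 and 16.3 CPM. Pparg, a nuclear receptor of lipid uptake and storage, had 5 UMIs in the tumour library and stood at 64.4 CPM in leukocytes. Per barcode 14 of the 27 were called for tumour cells and 6 for leukocytes, on a scale where 6173 of all 11185 genes were called for tumour cells.

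Stress genes were mixed, and their lists went different ways. Of 121 compared genes 40 were called for tumour cells, 24 for leukocytes and 57 for neither (median 0.26). The shares were 33.1% for tumour cells and 19.8% for leukocytes, against 30.6% and 28.2% of all compared genes, so the tumour share was near that of all genes. On the per-barcode scale the counts were 73 and 13, where 6173 and 2030 of all 11185 genes were called.

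Of 19 compared genes of the integrated stress response 10 were called for tumour cells and 4 for leukocytes (median 1.87). Asns (chr6:7675169-7693254, minus strand), asparagine synthetase, stood at 285 CPM in tumour cells and 6.76 CPM in leukocytes (log2 ratio 5.40 (5.31 to 5.49)). Phgdh and Shmt2, of serine and one-carbon metabolism, stood at 275 and 32.6 CPM and at 96.4 and 10.4 CPM, and Trib3, a pseudokinase of the response, at 39.7 and 2.25 CPM. The 4 genes called for leukocytes were Ddit3, Atf3, Cebpb and Ppp1r15a. Ddit3, which encodes CHOP, stood at 4.20 and 43.5 CPM (log2 ratio -3.37 (-3.46 to -3.29)), and Atf3 at 43.5 and 292 CPM. Ddit3 shares its symbol with an overlapping gene model in the files, so its count is uncertain. Atf4, which drives both sets, stood at 211 and 118 CPM, within 2-fold.

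Chaperones of the endoplasmic reticulum were mostly alike on this scale, with 16 of 24 within 2-fold, 2 called for tumour cells, 6 for leukocytes and a median of -0.32. Hspa5, the main chaperone (BiP), stood at 429 and 738 CPM (log2 ratio -0.78 (-0.80 to -0.77)). The sensors Ern1 (23.8 and 138 CPM) and Atf6 (48.02 and 217 CPM) were called for leukocytes, and the disulfide isomerases Pdia4 (134 and 59.1 CPM) and Pdia6 (578 and 259 CPM) for tumour cells.

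Heat shock protein genes, cytosolic and mitochondrial, were called for tumour cells in 8 of 14 cases, with 2 called for leukocytes (median 1.25). Cryab (chr9:50751325-50756636, plus strand), a small heat shock protein, stood at 284 CPM in tumour cells and 3.53 CPM in leukocytes (log2 ratio 6.33 (6.20 to 6.46)). Hspb8, a further small heat shock protein, stood at 59.1 and 0.311 CPM, a leukocyte level inside the keratin range, and the mitochondrial chaperonin Hspd1 at 869 and 89.7 CPM. The inducible Hsp70 gene Hspa1a went the other way, with 0.0717 and 17.9 CPM, although its neighbour Hspa1b, a near-identical copy, stood at 6.15 and 13.6 CPM, and the split of reads between such copies is uncertain.

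Genes that limit lipid peroxidation lay mostly within 2-fold (14 of 22, with 5 called for tumour cells and 3 for leukocytes). Gpx4, the peroxidase that reduces lipid hydroperoxides and so restrains ferroptosis, stood at 579 CPM in tumour cells and 243 CPM in leukocytes (log2 ratio 1.26 (1.24 to 1.27)). Dhodh, a mitochondrial enzyme that reduces ubiquinone, stood at 21.5 and 4.47 CPM. Slc7a11, the cystine importer, was near equal at 91.9 and 108 CPM. Hmox1, haem oxygenase, and Nfe2l2, which encodes NRF2, were called for leukocytes with 20.3 and 176 CPM and 44.7 and 204 CPM. Of the iron and lipoxygenase genes 2 of 9 were called for tumour cells and 6 for leukocytes. Tfrc, the transferrin receptor that brings iron in, stood at 81.6 and 14.9 CPM, whereas Slc11a1, the phagosomal metal transporter, stood at 13.6 and 149 CPM. Alox5ap, which presents arachidonate to 5-lipoxygenase, stood at 2.36 and 431 CPM.

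Of 33 compared hypoxia and glycolysis genes 13 were called for tumour cells and 3 for leukocytes (median 0.65). The shares were 39.4% and 9.09%, against 30.6% and 28.2% of all compared genes. With scaling by the median of ratios 11 of the 33 were called for tumour cells, against 3079 of all 11185 genes. Slc16a3, the lactate exporter, stood at 375 and 86.3 CPM, and Tpi1, a glycolytic isomerase, at 1262 and 269.7 CPM. Egln3, an oxygen sensor that is itself induced by hypoxia, stood at 71.2 and 4.06 CPM. Vegfa lay within 2-fold at 30.4 and 19.4 CPM. The hexokinases differed by member. Hk3, a myeloid isoform, stood at 0.0619 and 128 CPM and took 58.1% of hexokinase UMIs in leukocytes, against 59.8% for Hk2 in tumour cells.

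The listed ligand and receptor genes were the most leukocyte-sided of the 7 themes. Many of them are chemokine, cytokine and checkpoint genes or their receptors, which immune cells typically carry. Between CD45-positive and CD45-negative cells their side was largely set by the choice of genes, so the counts do not describe signalling genes in general. Of 56 compared ligands 41 were called for leukocytes and 10 for tumour cells (median -6.01), and of 54 compared receptors 42 and 6 (median -5.58). Per barcode the counts were 38 and 15 for ligands and 39 and 8 for receptors. Of 77 listed ligand and receptor pairs, 36 had both genes at 20 CPM or more in a library. In 20 of the 36 both genes were called for leukocytes, in 6 the ligand was called for leukocytes and the receptor for neither, and in 5 the ligand was called for neither and the receptor for leukocytes. In 3 pairs the ligand was called for tumour cells and the receptor for leukocytes, and in 2 both were called for tumour cells. No pair had a leukocyte ligand and a tumour receptor among these 36, although 6 of the pairs below 20 CPM did.

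The 3 pairs that pointed from tumour cells to leukocytes were Csf1 with Csf1r, Il34 with Csf1r, and Mif with Cd74. Csf1r, the receptor that macrophages and microglia depend on, stood at 0.160 CPM in tumour cells and 371 CPM in leukocytes. Csf1 (chr3:107741048-107760469, minus strand) stood at 216 and 23.2 CPM (log2 ratio 3.21 (3.16 to 3.27)). Il34 (chr8:110741829-110805924, minus strand), the second ligand of that receptor, stood at 101 and 0.585 CPM (log2 ratio 7.42 (7.11 to 7.76)), with a leukocyte level that is 0.582% of the tumour level and so inside the keratin range. At 2000 UMIs per barcode Csf1 had a UMI in 31.9% of tumour and 3.36% of leukocyte barcodes, and Il34 in 17.1% and 0.119%. On all UMIs the shares were 88.7% and 13.5% for Csf1 and 82.1% and 0.532% for Il34. Mif, an inflammatory cytokine, stood at 1335 and 287 CPM and Cd74, its receptor and the invariant chain of MHC class II, at 4.19 and 5326 CPM.

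The pairs within tumour cells were those of the EGF receptor. Egfr stood at 40.3 CPM in tumour cells and 0.903 CPM in leukocytes (log2 ratio 5.47 (5.22 to 5.75)). Its ligands Hbegf and Areg stood at 124 and 6.45 CPM and at 45.9 and 17.5 CPM. Pdgfa, a growth factor for mesenchymal and glial cells, stood at 397 and 11.2 CPM, while its receptor gene Pdgfra reached 11.2 CPM in tumour cells and 0.533 CPM in leukocytes, below the 20 CPM asked of a pair.

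Most chemokine, cytokine and checkpoint pairs had both genes in the leukocyte library. Ccl2, which recruits monocytes, stood at 37.9 CPM in tumour cells and 515 CPM in leukocytes, and its receptor gene Ccr2 at 0.0163 and 435 CPM. Il1b stood at 0.0163 and 964 CPM. Cd47, the signal that restrains phagocytosis and that is often studied on cancer cells, stood at 190.5 and 531 CPM (log2 ratio -1.48 (-1.49 to -1.46)), and its receptor gene Sirpa at 0.114 and 452 CPM. Hgf had 0 UMIs in the tumour library and 33.6 CPM in leukocytes, at least 3435-fold higher when 3 counts over the library are allowed, while its receptor gene Met stood at 28.5 and 20.9 CPM. Klrk1, which encodes the NKG2D receptor, also had 0 tumour UMIs and 119 CPM in leukocytes (at least 12170.4-fold higher), and its ligand gene Raet1e was within 2-fold at 53.2 and 40.5 CPM. Spp1 (513 and 1061 CPM) and Tgfb1 (123 and 254 CPM) were just past 2-fold on the leukocyte side, and both turned to the tumour side when UMIs per barcode were used (log2 ratios 0.04).

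**Figure D4:**
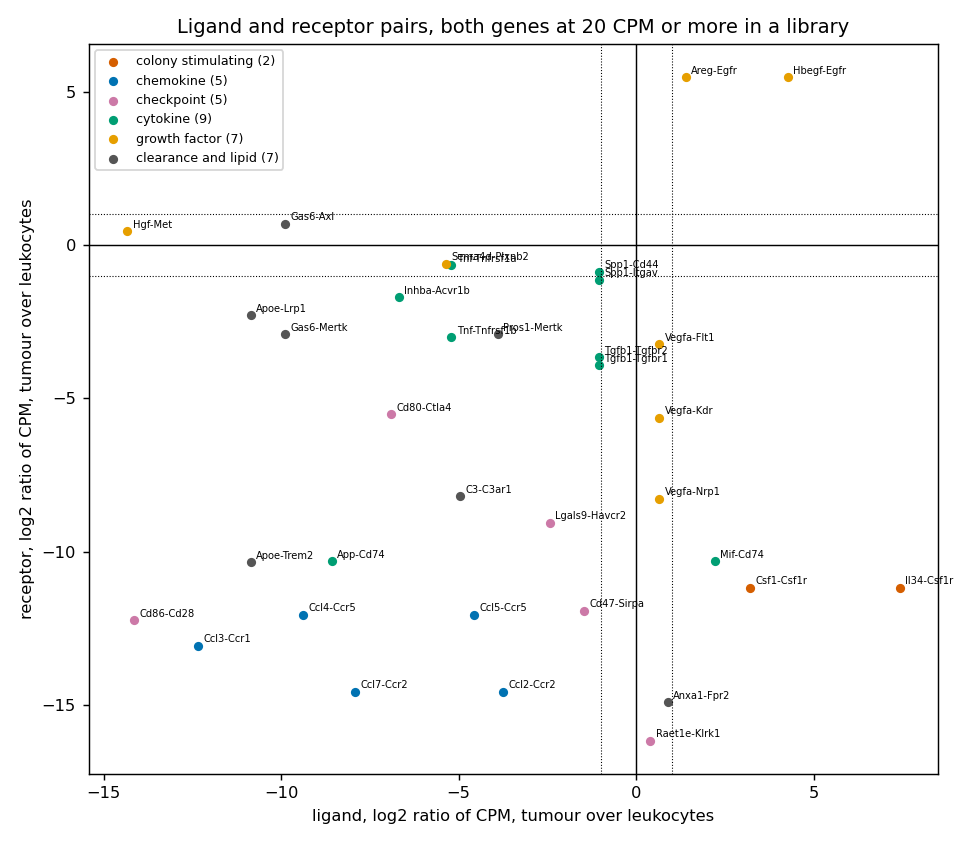
Each point is 1 of 35 of the 36 pairs whose genes both reach 20 CPM in a library, placed by the log2 ratio of CPM (tumour over leukocytes) of its ligand on the horizontal axis and of its receptor on the vertical axis, coloured by class, with dotted lines at 2-fold. The EGF receptor pairs lie in the upper right at a receptor ratio of 5.47, the CSF1 receptor and Cd74 pairs with tumour ligands lie in the lower right, and 20 pairs fill the lower left.

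The leukocyte library is a mixture, and marker gates show where its transcripts lay. A barcode with at least 3 UMIs of Tmem119, P2ry12, Sall1 and Gpr34 together entered a microglia gate (894 barcodes). The other barcodes with at least 5 UMIs of phagocyte markers, among them Lyz2, Csf1r, Cd68, Adgre1 and Fcgr1, entered an other phagocyte gate (4067). Both gates also asked for under 3 UMIs of the lymphoid markers named next. Those with at least 3 UMIs of Cd3d, Cd3e, Cd3g, Cd79a, Ms4a1, Ncr1 and Klrb1c and under 5 phagocyte UMIs entered a lymphoid gate (535). Another 604 held both kinds and 859 held neither. Sums within 1 UMI of a threshold were found in 779, 361 and 160 barcodes for the microglia, phagocyte and lymphoid markers, and median depths of the 3 gates were 21153.5, 15769 and 8509 UMIs. The 604 barcodes with both kinds of markers were deeper, with a median of 35722 UMIs, and held 18.2% of the UMIs of the library. Whether they held more than 1 cell was not tested.

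Cholesterol synthesis stayed on the tumour side against every gate, with list medians of 2.55 against microglia, 2.37 against other phagocytes and 2.16 against the lymphoid gate (all compared genes 0.14, 0.31 and 0.07). The lysosomal list was far to the leukocyte side against both phagocyte gates (-2.51 and -1.77) and near 0 against the lymphoid gate (0.10). The droplet list did likewise (-1.27, -2.18 and 0.20), and the export list remained negative throughout (-4.83, -4.30 and -3.45). Single genes show how the phagocytes shared this role. Apoe stood at 10576 CPM in microglia, 5635 CPM in other phagocytes and 183 CPM in the lymphoid gate. Trem2 stood at 643, 182 and 10.1 CPM and Plin2 at 489, 813 and 43.1 CPM, so Apoe and Trem2 were highest in the microglia gate and Plin2 in the other phagocytes.

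Scd1 was higher in tumour cells than in either phagocyte gate and lower than in the lymphoid gate. It stood at 0.877 CPM (0.543 to 1.34) in microglia, 0.764 CPM (0.576 to 0.994) in other phagocytes and 37.1 CPM (32.6 to 42.1) in the lymphoid gate, against 22.5 CPM in tumour cells. A division of the lymphoid gate by lineage, made after these values were seen, placed the signal of that gate in barcodes with Cd79a or Ms4a1, the B cell genes. There Scd1 had 225 UMIs in 76 of 100 barcodes, or 258 CPM (225 to 294), a log2 ratio of tumour over this gate of -3.52 (-3.71 to -3.32). The 268 barcodes with Cd3 genes and the 154 with Ncr1 or Klrb1c held 1 UMI each. Of the 700 Scd1 UMIs in the leukocyte library, the barcodes with markers of both kinds held 304 (12.3 CPM) and those with neither held 77, so the B division held 225 of its gate's 243 but fewer than the mixed barcodes. Scd2 showed no such concentration, at 33.4, 32.1 and 44.1 CPM in the T, B and natural killer divisions. Dgat1 showed a different lymphoid pattern. It stood at 205 CPM (191 to 219) in the T division and 297 CPM (269 to 327) in the natural killer division but at 9.16 CPM (3.95 to 18.05) in the B division, against 8.68 CPM in tumour cells and 31.5 CPM in other phagocytes. Elovl6, tumour-sided against phagocytes (4.63 CPM), matched the tumour level of 41.5 CPM in the T division (45.3 CPM, log2 ratio -0.13 (-0.34 to 0.09)). Fabp5 was high also in the 501 ungated barcodes with dendritic cell markers, at 3386 CPM (3342 to 3431). These gates are small, and free RNA or barcodes holding more than 1 cell were not removed.

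**Figure D5:**
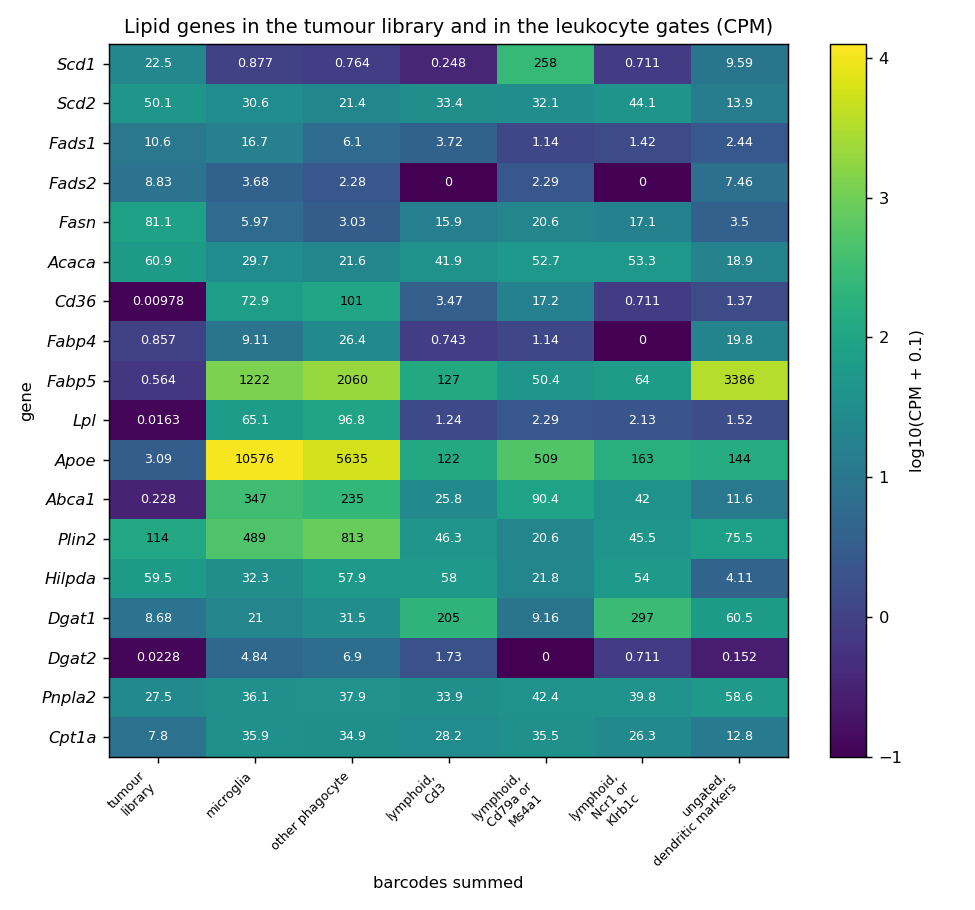
Cells give the CPM of 18 lipid genes (rows) in the tumour library and in 6 sets of leukocyte barcodes (columns), with colour for log10(CPM + 0.1). Scd1 reaches 258 CPM in the B division against 22.5 CPM in the tumour library, and Apoe, Cd36 and Lpl are highest in the microglia and other phagocyte columns.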

How the data were processed

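Single-cell 3′ RNA counts came from 1 vehicle tumour and 1 vehicle leukocyte library of a series of 4. The matrices as deposited give raw UMI counts for 32285 features in each barcode. The authors made these counts with Cell Ranger 7.1.0 on mm10, per the submitters' processing notes. No source used here gives the annotation or the treatment of intronic reads. Every deposited barcode had at least 500 UMIs.

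Barcodes with under 300 genes or over 15% mitochondrial UMIs were left out (373 of 7332 leukocyte and 260 of 7713 tumour barcodes). UMIs were summed per library and scaled to CPM, and log2 ratios took 0.5 counts with the exact conditional binomial 95% interval. Genes were compared where 1 of these libraries or both reached 5 CPM. Shares used Clopper-Pearson intervals and thinning to 2000 UMIs, which left out shallower barcodes. A fold against 0 counts uses a floor of 3 counts. Scrublet (scanpy 1.11.5) marked 0 and 1 barcodes and so did not work, and no doublets were removed. Of 2 gene models that share a symbol, the lower identifier was kept. The ratio calculation was tested on simulated counts. Python 3.11.15, numpy 2.4.6, scipy 1.17.1 and pandas 2.3.3 were used.

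The 21 lists, pairs and gates were chosen with earlier results of these data known. Genes were named by rule: per list, the 4 highest and 4 lowest ratios among members at 20 CPM, plus fixed lipid and stress genes and pairs at 20 CPM. Fdps, Me1, Elovl6, Srebf1, Slc25a1, Hmgcs1, Lss, Insig1, Lpin3, Psap, Ctsd, Fabp3, Acsl5, Acsl6, Hadha, Acadm, Atf4, Hspa1a, Hspa1b, Hk2, Pdgfra and the genes of the closing section were named after their values were seen. Some listed genes are not reported here by name.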

Additional observations from a re-analysis of the deposited data

How the results depend on the processing

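Counts of called genes were recomputed with no barcode left out, with at least 500 genes and at most 10% mitochondrial UMIs, the highest doublet scores removed, barcodes with markers of other cells removed, other scalings, other minimum CPMs and 5 counts added. Of 213 named genes 167 were past 2-fold. All 167 kept their direction under each alternative but UMIs per barcode, which reversed Asah1 (0.0568), Tgfb1 (0.0412) and Spp1 (0.0363). On that scale 144 of the 167 stayed past 2-fold in the same direction, and 6 of the 21 list medians turned from negative to positive. Those were sphingolipid synthesis, fatty acid uptake and activation, droplet lipolysis, fatty acid oxidation, ferroptosis control and endoplasmic reticulum chaperones. With UMIs per barcode the genes called for tumour cells numbered 6173 of all, 63 of synthesis, 11 of uptake and export, 6 of storage, 14 of oxidation and 73 of stress, and those called for leukocytes 2030 of all, 6 of synthesis and 13 of stress. With no minimum CPM the sets compared grew to 25508 genes of all, 28 of storage and 34 of oxidation. Of these, 6985 of all, 7 of storage and 3 of oxidation were called for tumour cells. For leukocytes the counts were 9957 of all and 13 of storage. With a minimum of 20 CPM, 1 of 12 storage and 2 of 40 receptor genes were called for tumour cells. Oxidation genes called for tumour cells, 1 in the main count, were 3 with barcodes holding markers of other cells removed, 3 with the mean of each barcode's own CPM, and 2 with a narrower endothelial list. That narrower list was chosen after the data were seen, because the planned removal took 3326 of 7453 tumour barcodes and the narrower 102. Shallow leukocyte barcodes limit what the lymphoid gate can show. The 2 libraries were sorted from the same pooled brains and form 1 pair, so no paired test across animals was possible.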

Other observations

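Of the pairs with a gene below 20 CPM in both libraries, 6 combined a leukocyte ligand with a tumour receptor. Igf1, an insulin-like growth factor, stood at 0.00652 CPM in tumour cells and 13.5 CPM in leukocytes, and its receptor gene Igf1r at 180.1 and 43.4 CPM. Pdgfb, a platelet-derived growth factor, stood at 0.437 and 25.3 CPM, and Pdgfrb, its receptor gene and a mural cell marker, at 14.2 and 0.422 CPM. Osm, an interleukin 6 family cytokine of myeloid cells, stood at 1.12 and 91.7 CPM, and its receptor gene Osmr at 6.27 and 0.133 CPM. Tnfsf10, which encodes TRAIL, stood at 0.733 and 15.99 CPM, and the death receptor gene Tnfrsf10b at 8.44 and 0.851 CPM. The other 2, Tgfa with Egfr and Pros1 with Tyro3, each had a gene (Tgfa, Tyro3) under 5 CPM in both libraries. Protein was not measured.

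Lymphoid lipid genes beyond those above also differed by division. Ugcg, which makes glucosylceramide, stood at 188 CPM in the T division, 93.9 CPM in the B division and 1180.3 CPM in the natural killer division, against 49.9 CPM in tumour cells. Cers4, a ceramide synthase with 0.147 CPM in tumour cells, stood at 56.5, 36.6 and 41.2 CPM in the same order. Hacd3, a dehydratase of fatty acid elongation, stood at 165, 27.5 and 68.97 CPM. Counting intervals are wide in the B division, which held 873486 UMIs.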
